A study of Mus musculus with 9 samples.

Results

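Naive CD4+ T cells, helper T cells that have not yet met their antigen, of wild-type C57BL6/J mice, taken from lymph nodes, were cultured for 20 h with recombinant interleukin-1 beta (IL-1b) at 10 ng/mL or without the cytokine. The 3 IL-1b-treated and the 3 cultured libraries were taken by their labels, and they make up 6 of the 9 libraries of the series. The other 3 are freshly isolated cells, which entered the fit for the estimate of spread and no comparison. Of 55487 genes in the tables, 13043 had enough counts to be tested, and all of them were compared. The labels do not say whether the replicates came from separate animals or cultures, so the p-values may measure technical spread only.

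IL-1b binds the receptor Il1r1, which recruits the accessory chain Il1rap, and the adaptor Myd88 then assembles the kinases Irak4 and Irak1 and the ligase Traf6. Traf6 activates Map3k7 (TAK1), which switches on the IKK kinases, and through them NF-kB, and the MAP kinases that feed AP-1. In T cells the cytokine is known mainly for its effects on activated and effector cells, among them IL-17-producing helper cells.

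Total expected counts were 15127261 to 15953937 in cultured and 14864468 to 17822120 in IL-1b-treated libraries. All 17 naive CD4+ T cell markers were detected and tested. Their summed level was 9086 to 9097 CPM (each count relative to its library's total, here scaled by the trimmed mean of M values, TMM) in cultured and 9389 to 9474 CPM in IL-1b-treated libraries, whereas their share of all counts was 0.922% ± 0.0013 and 0.883% ± 0.0032 (SD, n = 3). B cell markers summed to 191 to 199 CPM against 206 to 225 CPM, and the 15 myeloid and dendritic markers to 42.6 to 44.9 CPM against 56.1 to 65.3 CPM, with Cd14, Xcr1 and Batf3 at 0 counts. Of the tested markers 1 of 12 B cell genes was higher and 1 lower, and 1 of 8 myeloid genes was higher. Over all tested genes 15.6% were higher and 13.3% lower. The 6 regulatory T cell markers summed to 313 to 323 CPM against 356 to 398 CPM, and 2 of them were higher with IL-1b. In bulk RNA, a change in the number of cells of a type and a change in RNA per cell cannot be told apart. The part these cells play in the results was not tested.

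With IL-1b, 3768 genes (28.9% of those tested) differed from culture without it, 2037 higher (15.6%) and 1731 lower (13.3%), at an adjusted p of 0.05 in edgeR's quasi-likelihood test. Most differences were small. The median fold among them was 1.24, and 34 genes rose and 82 fell by at least 2-fold. The balance of the directions depended on the scaling. Dividing by the library size alone called 1191 genes higher and 3273 lower, and TPM values called 289 higher and 4452 lower. The median of all genes was then -0.12 and -0.25 on the log2 scale, beside -0.01 with TMM. TMM factors were 1.01 to 1.02 in cultured and 0.934 to 0.938 in IL-1b-treated libraries. In 5254 genes (40.3%) the CPM values of the libraries did not overlap between the groups.

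The differences followed the length of the transcript. Effective length is the transcript length over which a fragment can start, as given in the deposited tables. Among genes of the shortest 10th by effective length (13.1 to 678 bases) the median log2 fold change was 0.35, with 474 genes higher and 15 lower. In the longest 10th (4618 to 122961 bases) it was -0.17, with 30 higher and 523 lower. The median was 0.00 in the bin around 1845 bases. Across the 13043 genes the log2 fold change fell by 0.10 per doubling of length, and length accounted for 5.92% of its variance. Among the 8510 genes of at least 10 CPM the slope was -0.14 and length accounted for 29.5% of the variance (Spearman's rho -0.54, across genes, which are not independent replicates).

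**Figure D1:**
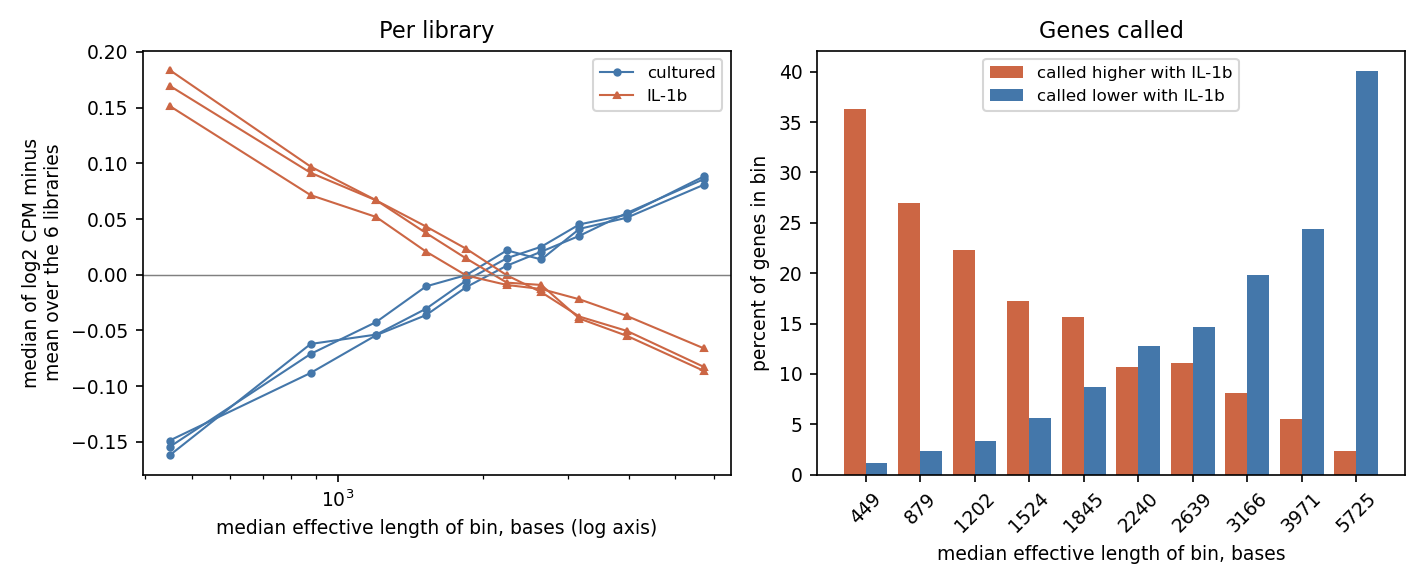
Left, median deviation of log2 CPM from the mean of the 6 libraries in 10 bins of effective length (log axis), 1 line per library. Right, percent of genes in each bin called higher (orange) or lower (blue) with IL-1b. The 3 IL-1b-treated lines fall and the 3 cultured lines rise with length, and 36.3% of the shortest but 2.30% of the longest genes were called higher. Opposite directions of the groups follow from the shared mean, and only their difference is informative.

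Each library showed the same trend as its group. Deviations were taken from the mean of the 6 libraries, so the mean slopes of the groups are opposite by construction. Only the difference between the groups is informative. The slope of log2 CPM deviation per doubling of length was 0.0510, 0.0446 and 0.0453 in cultured libraries and -0.0406, -0.0520 and -0.0483 in IL-1b-treated ones, so the groups did not overlap (two-sided exact permutation test, p = 0.1, the smallest that 3 against 3 allows). The median count fell in a transcript of 2136, 2126 and 2100.1 bases in cultured and of 1794, 1781 and 1792 bases in IL-1b-treated libraries. Mean fragment length, read from the difference between length and effective length, was 227, 214 and 223 bases in cultured and 218, 215 and 217 bases in IL-1b-treated libraries, and these values overlapped (exact permutation p = 0.4). Between 17227 and 17358 genes had counts in each cultured and between 16209 and 16378 in each IL-1b-treated library, again without overlap. RNA integrity values were not analysed here. Whether the trend arose in the cells or in the RNA and libraries was not tested.

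In 2 further fits, offsets removed the trend from each library, fitted over all genes or, chosen after seeing the data, over the genes of at least 10 CPM, where it was steeper. The former called 2191 genes higher (16.8%) and 917 lower (7.03%), the latter 1492 (11.4%) and 1425 (10.9%). Of the 3768 genes, 2442 kept call and direction in the former (1625 higher, 817 lower) and 2220 in the latter (1170 higher, 1050 lower), and 9 were called in the opposite direction in the former. Removing the trend also removes any true difference that runs with length. Length and base composition were also removed together, and each library's own effective lengths were used as an offset. Of 120 genes named below that were called, 17 did not keep their call and direction with the length trend of all genes removed, 18 with the steeper trend removed, 23 with base composition and length removed and 18 with the effective length offset, 40 in all. These counts do not stand for all called genes. The 12 largest changes each way were chosen for keeping their call with the length trend of all genes removed, and many others for a small adjusted p.

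The receptor of the cytokine was not detected. Il1r1 had 0 counts in each of the 6 libraries, which allows at most 0.180 to 0.215 CPM per library (3 counts, counting error only). The decoy receptor Il1r2 had 4, 0 and 0 counts in cultured and 1, 0 and 0 in IL-1b-treated libraries. The accessory chain Il1rap was at 14.4, 18.7 and 14.8 CPM in cultured and 17.2, 18.2 and 15.6 CPM in IL-1b-treated libraries, which overlapped (log2 fold change 0.09 ± 0.13 SE, edgeR adjusted p = 0.687). None of the 5 tested of 8 IL-1 family receptors passed the test. Among the others, Sigirr, an inhibitory receptor of the family, had a log2 fold change of 0.08 ± 0.06, and Il18r1, the receptor of IL-18, of 0.14 ± 0.07. Il18r1 was called higher with either length trend removed (0.20 with the steeper one, edgeR adjusted p = 0.0362). It was not called with base composition and length removed (0.17, edgeR adjusted p = 0.064), and its value was -0.15 on the TPM scale. The Il1b gene itself had 0 counts in all 6 libraries.

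Of 18 tested adaptors and kinases, none rose and 5 fell, among them Irak3, an inhibitory kinase, Ube2v1, which helps to build ubiquitin chains, Traf3 and Tab2. Over all genes 13.3% were lower. In the adaptor list 1 was higher and 2 were lower with the length trend of all genes removed, and with the steeper trend removed 1 and 3. The calls of Irak3 and Tab2 ended in all 4 length settings (edgeR adjusted p = 0.064 to 0.633). That of Irak3 was lost when any 1 library other than IL-1b replicate 3 was left out (edgeR adjusted p = 0.0583 to 0.183), and that of Tab2 without cultured replicate 2 (edgeR adjusted p = 0.0721). DESeq2, limma-voom, TPM values, no low-count filter and the 6 libraries alone also ended the call of Irak3. Ube2v1 was at 98.7, 93.3 and 81.1 CPM in cultured and 72.2, 72.7 and 68.04 CPM in IL-1b-treated libraries, without overlap (log2 fold change -0.36 ± 0.07, edgeR adjusted p = 1.95e-04, and -0.43 with the steeper length trend removed). Traf3, an adaptor that restrains noncanonical NF-kB, was lower by -0.30 ± 0.05 on the log2 scale (adjusted p = 8.22e-05, edgeR), but not called with the length trend of all genes removed (-0.13, adjusted p = 0.0746, edgeR) or with base composition and length removed (-0.05, adjusted p = 0.579, edgeR). Myd88 was at 50.9, 48.3 and 54.5 CPM against 54.3, 55.7 and 59.8 CPM and overlapped between the groups. The log2 fold changes of Irak4, Irak1, Traf6 and Map3k7 were -0.23 ± 0.11, -0.10 ± 0.05, -0.10 ± 0.05 and -0.10 ± 0.05, and none passed the test (edgeR adjusted p = 0.135 to 0.171).

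Of the 8 NF-kB and IKK genes, all tested, 3 fell and none rose, beside 13.3% lower and 15.6% higher over all genes. Ikbkb, the catalytic IKK-beta, was at 368, 378 and 375 CPM in cultured and 321, 296 and 306 CPM in IL-1b-treated libraries, all of them below (log2 fold change -0.28 ± 0.03, edgeR adjusted p = 1.87e-06). Nfkb1, the p50 precursor, fell by 0.25 ± 0.04 and Rela, the p65 subunit, by 0.27 ± 0.05 on the log2 scale (edgeR adjusted p = 1.00e-04 and 3.77e-04), and all 3 stayed lower with either length trend removed. With base composition and length removed Rela was not called (-0.15, adjusted p = 0.0518, edgeR). Rel, Chuk and Ikbkg had log2 fold changes of -0.09 ± 0.07, -0.01 ± 0.06 and 0.02 ± 0.05 and did not pass the test, and the value of Ikbkg turned to -0.31 on the TPM scale.

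Several inhibitors of NF-kB are induced by it as feedback. Of 13 tested, 2 rose (Nfkbia and Otulin) and 2 fell (Nfkbie and N4bp1), beside 15.6% higher and 13.3% lower over all genes. None of the 13 was called with either length trend removed. With base composition and length removed, Nfkbia (0.16, adjusted p = 0.0497, edgeR) and Otulin (0.25, adjusted p = 0.037, edgeR) were called higher, and none lower. Neither was called with the effective length offset (edgeR adjusted p = 0.093 and 0.187). The call of Nfkbie was lost without fresh replicate 2, any 1 cultured replicate or IL-1b replicate 1 or 3 (edgeR adjusted p = 0.0529 to 0.0995). Limma-voom, no low-count filter and the 6 libraries alone also ended the call of Nfkbie. That of Otulin, a deubiquitinase of linear chains with a value of -0.05 on the TPM scale, was lost without cultured replicate 1 or 3 or IL-1b replicate 2 or 3 (edgeR adjusted p = 0.0529 to 0.224). Nfkbia, the I-kappa-B alpha that holds NF-kB in the cytoplasm, was at 84.5, 94.6 and 92.3 CPM in cultured and 107, 100.4 and 97.8 CPM in IL-1b-treated libraries, just above the cultured range (log2 fold change 0.17 ± 0.05, edgeR adjusted p = 0.0213). This call was lost without cultured replicate 1 (log2 fold change 0.12, adjusted p = 0.145, edgeR) or without IL-1b replicate 1 (0.14, adjusted p = 0.097, edgeR), and the value was 0.00 with the steeper length trend removed and -0.14 on the TPM scale. Tnfaip3, the deubiquitinase A20, was at 31.0, 30.6 and 31.4 CPM against 32.8, 32.5 and 30.4 CPM and overlapped (log2 fold change 0.04 ± 0.08).

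The Nfkbia promoter carries NF-kB sites in textbook accounts, and its sequence is shown because the gene is the usual readout of the pathway. The 250 bases before its start, GRCm38.p6 (RefSeq), chr12:55492648-55492897, minus strand, hold 1 match of GGG, any 2 bases and TTTCC, searched on both strands, in capitals, beginning 29 bases before the start.

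Nfkbia: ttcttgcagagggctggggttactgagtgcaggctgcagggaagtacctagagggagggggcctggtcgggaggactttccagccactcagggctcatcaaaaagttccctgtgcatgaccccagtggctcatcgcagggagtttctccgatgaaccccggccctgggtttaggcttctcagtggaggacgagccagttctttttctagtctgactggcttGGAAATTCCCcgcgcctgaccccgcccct

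Such a match lay in the 250 bases before a start of 165 of 9178 tested genes with a RefSeq promoter (1.80%). Of these 165 genes, 28 (17.0%) were higher with IL-1b and 16 (9.70%) lower, with a median log2 fold change of 0.02, beside 0.00 for the genes without it.

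In the MAP kinase arm, 1 of 25 tested genes rose and 4 fell (Mapk11, Mapkapk3, Map2k7 and Mapk14), beside 15.6% higher and 13.3% lower over all genes. With the length trend of all genes removed 2 were higher and 1 lower, with the steeper trend removed 1 and 3, and with base composition and length removed 1 and 0. The calls of Mapk11, Map2k7 and Mapk14 ended with the length trend of all genes removed (edgeR adjusted p = 0.0572, 0.203 and 0.122), and Mapkapk3 was not called with base composition added (edgeR adjusted p = 0.0833). The call of Map2k7 was lost without IL-1b replicate 1 or 3 (edgeR adjusted p = 0.081 and 0.0689), and that of Mapk11 without cultured replicate 1 or 2 or IL-1b replicate 2 or 3 (edgeR adjusted p = 0.0528 to 0.105). Mapk8, the kinase JNK1, was at 53.6, 47.1 and 46.9 CPM in cultured and 57.9, 65.6 and 59.6 CPM in IL-1b-treated libraries, and rose by 0.31 ± 0.08 on the log2 scale (edgeR adjusted p = 0.00359), though its value was -0.05 on the TPM scale and its call was lost with the effective length offset (edgeR adjusted p = 0.113). Mapk14, the kinase p38-alpha, fell by 0.20 ± 0.05, from 124, 129 and 114 CPM to 110.0, 102 and 108 CPM (edgeR adjusted p = 0.00483), and was at -0.11 with the length trend of all genes removed and -0.07 with base composition added. The AP-1 subunits Fos and Jun overlapped between the groups, Fos at 17.95 to 20.5 CPM against 15.9 to 19.3 CPM and Jun at 5.17 to 6.5 CPM against 4.39 to 6.44 CPM. Of 21 T cell products and regulators linked to IL-1, 5 had enough counts, and none passed the test. Tnf was at 17.6, 17.8 and 16.6 CPM against 17.1, 19.1 and 20.7 CPM, and the log2 fold changes of Irf4 and Rora were 0.30 ± 0.18 and -0.23 ± 0.13. Il17a, Csf2, Il6, Il9 and Ccl20 had 0 counts in all 6 libraries.

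**Figure D2:**
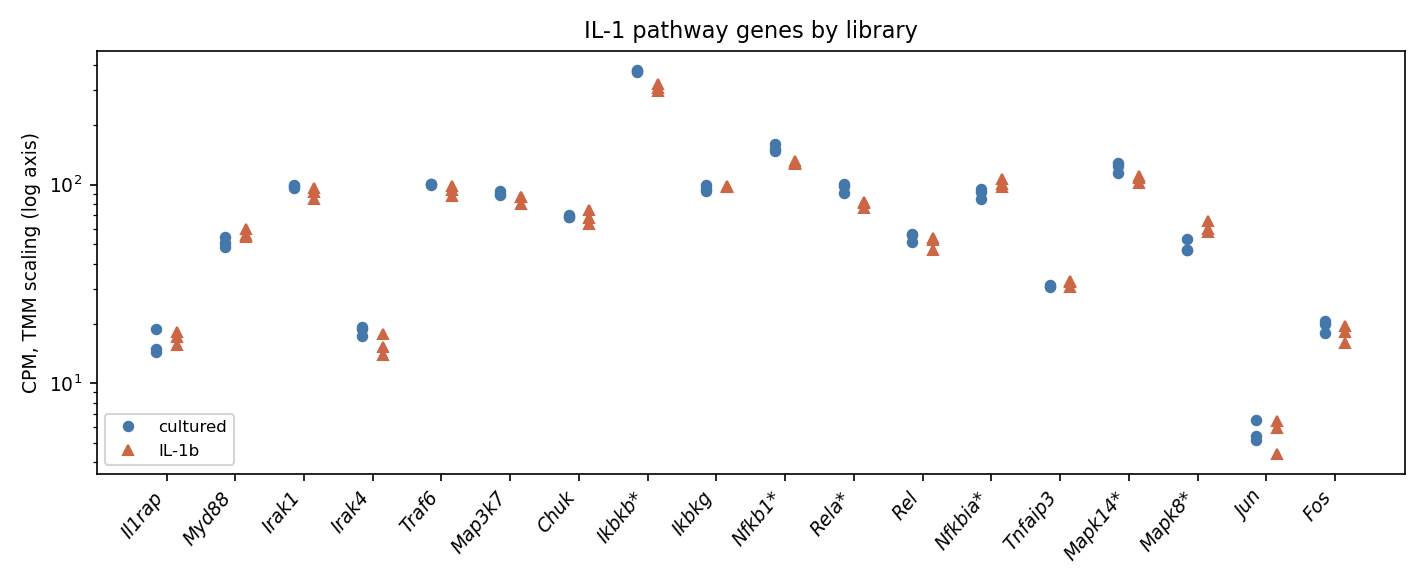
CPM (TMM scaling, log axis) of 18 IL-1 pathway genes in each cultured (circles) and IL-1b-treated (triangles) library. An asterisk marks the 6 genes that passed the test, of which Nfkbia and Mapk14 were not called with the length trend of all genes removed. Ikbkb, Nfkb1, Rela and Mapk14 lie lower, and Nfkbia and Mapk8 higher, with IL-1b.

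Ribosomal proteins form the ribosome together with its RNA. All 32 small subunit genes and 48 of 49 tested large subunit genes rose, beside 15.6% of all genes, with a median log2 fold change of 0.59 in each. Some, such as Rps9 and Rps13 at -0.22 and -0.03, were below 0 on the TPM scale. Rps16 was at 2309, 2338 and 2338 CPM in cultured and 3764, 3739 and 3779.6 CPM in IL-1b-treated libraries, far outside the cultured range (log2 fold change 0.69 ± 0.02, edgeR adjusted p = 5.54e-16). Rpl7 was at 2209.8, 2282 and 2189.7 CPM against 3608, 3514 and 3523 CPM (0.67 ± 0.02, edgeR adjusted p = 9.70e-16). Large subunit genes took 6.81% ± 0.038 of all counts in cultured and 9.26% ± 0.13 in IL-1b-treated libraries (SD, n = 3), and small subunit genes 4.95% ± 0.036 and 6.74% ± 0.054. On the log2(TPM + 1) scale their medians were 0.26 and 0.28, beside -0.25 for all genes. Ribosomal protein genes have many processed pseudogenes, and 34 of the large and 20 of the small subunit genes had counts that were not whole numbers, so that some of their reads were shared among matching genes.

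These messages are short, with a median effective length of 447 bases (large subunit) and 394 bases (small subunit). With the length trend of all genes removed, 47 and 28 were called higher, with medians of 0.39 and 0.38, beside 16.8% of all genes. With the steeper trend removed, 44 and 22 were called higher, with medians of 0.20 and 0.17, beside 11.4% of all genes. In that fit 1 and 4 were lower, among them Rplp2, Rps9, Rps13 and Rps27, beside 10.9% of all genes. Rplp2, an acidic stalk protein, was the 1 gene of the 81 that did not rise, at 542, 546 and 563 CPM against 515, 541 and 531 CPM (log2 fold change -0.06 ± 0.04, edgeR adjusted p = 0.268). It and the other genes below the trend are named after their values were seen.

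In textbook accounts, messages of ribosomal proteins begin with a pyrimidine tract, which couples their translation to growth signals. The windows below run from 30 bases before to 20 bases after the RefSeq start, on the gene's strand in GRCm38.p6, with each CTTTC in capitals. They show the 5 ribosomal protein genes with the largest rise among those with a match in the window, then Psma5 of the proteasome and the giant ligase gene Huwe1 for comparison. Their positions are chr11:114668550-114668599 (plus strand) for Rpl38, chr2:39005112-39005161 (minus) for Rpl35, chr7:45128726-45128775 (minus) for Rpl13a, chr10:128626487-128626536 (minus) for Rps26, chr7:118116128-118116177 (minus) for Rps15a, chr3:108256896-108256945 (plus) for Psma5 and chrX:151803252-151803301 (plus) for Huwe1.

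Rpl38: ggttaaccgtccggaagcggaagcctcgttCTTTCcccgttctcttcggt
Rpl35: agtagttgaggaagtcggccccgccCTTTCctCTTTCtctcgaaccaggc
Rpl13a: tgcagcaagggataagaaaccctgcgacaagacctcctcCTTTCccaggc
Rps26: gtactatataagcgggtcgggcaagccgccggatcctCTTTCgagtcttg
Rps15a: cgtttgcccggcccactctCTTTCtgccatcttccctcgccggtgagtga
Psma5: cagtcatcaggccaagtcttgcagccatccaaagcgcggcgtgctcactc
Huwe1: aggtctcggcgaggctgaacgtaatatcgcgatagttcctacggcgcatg

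CTTTC on the gene's strand, between 30 bases before and 40 bases after a RefSeq start, was found in 27 of 61 ribosomal protein genes with a promoter (44.3%) and in 877 of all 9178 tested genes with one (9.56%). Among the ribosomal protein genes the median log2 fold change was 0.60 with and 0.58 without the match. Outside this family, the 850 genes with the match had a median of 0.00, beside -0.01 for the genes without it, with 146 higher (17.2%) and 111 lower (13.1%). A match says only that these letters stand in the window, and RefSeq starts can be some bases away from the true one.

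Of 46 tested initiation factors, 22 rose and 4 fell, beside 15.6% and 13.3% of all genes. The list median was 0.15, and -0.16 in TPM, where that of all genes was -0.25. Removal of the length trend of all genes left 23 higher and 5 lower (16.8% and 7.03% of all genes). That of the steeper trend left 21 and 7 (11.4% and 10.9%). Eif3e, a subunit of the eIF3 scaffold, was at 462, 465 and 443 CPM in cultured and 713, 656 and 657 CPM in IL-1b-treated libraries, without overlap (log2 fold change 0.57 ± 0.03, edgeR adjusted p = 1.53e-11, and 0.45 with the steeper length trend removed). Eif3m and Eif4a1, the helicase of the cap-binding complex, rose by 0.54 ± 0.04 and 0.41 ± 0.03. The long scaffold genes Eif4g1 and Eif4g3 fell by 0.22 ± 0.03 and 0.30 ± 0.04, and stayed lower with either length trend removed, but with base composition and length removed they were at -0.02 and -0.07 and not called (edgeR adjusted p = 0.663 and 0.223). Eif3f and Eif4h were the other 2 that fell, and the call of Eif4h was lost without cultured replicate 1 (edgeR adjusted p = 0.0919) and with the length trend of all genes removed (edgeR adjusted p = 0.052).

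Eef1a1, the elongation factor that delivers tRNA to the ribosome and the messenger with the most counts among the genes named here, was at 17760.5, 17891 and 17665 CPM against 23231, 22832 and 22944 CPM (log2 fold change 0.37 ± 0.01, edgeR adjusted p = 8.36e-15). On the TPM scale its value was 0.05 and not called. Eef2, the translocase, was at 4552, 4382 and 4685 CPM against 4157, 4414 and 4465 CPM, and these values overlapped. It was not called in the reported fit. With each of the other scalings, either other count filter, DESeq2, limma-voom or TPM values it was called lower, as it was without cultured replicate 2. Its direction turned with base composition and length removed. Both Eef1a1 and Eef2 carry a pyrimidine tract in textbook accounts, and the difference between their changes was not tested. Of 19 tested nucleolar and small nucleolar ribonucleoprotein genes 13 rose and none fell, beside 15.6% and 13.3% of all genes. The list median was 0.19, and -0.12 in TPM, where that of all genes was -0.25. With the length trend of all genes and the steeper trend removed 9 and 8 were higher, beside 16.8% and 11.4% of all genes. Npm1, the nucleolar chaperone of ribosome assembly, rose from 1004, 1075 and 996 CPM to 1601, 1533 and 1506 CPM (log2 fold change 0.59 ± 0.03, edgeR adjusted p = 1.09e-12). Nop10 and Nhp2, which bind guide RNAs for pseudouridylation, rose by 0.64 ± 0.06 and 0.66 ± 0.09. Of 22 cytosolic aminoacyl-tRNA synthetase genes 11 rose and 2 fell, beside 15.6% and 13.3% of all genes. Rars rose (0.49 ± 0.06), and Vars (-0.29 ± 0.07) and Yars fell. After removal of the length trend of all genes 10 of the list were higher and 2 lower (16.8% and 7.03% of all genes). After that of the steeper trend 10 and 3 were (11.4% and 10.9%). Vars was not called with base composition added (edgeR adjusted p = 0.19). The call of Yars was lost without cultured replicate 3 or IL-1b replicate 1 or 2 or with the effective length offset (edgeR adjusted p = 0.0689 to 0.173).

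The respiratory chain passes electrons through complexes I to IV and drives the ATP synthase. Of 36 tested complex I genes 30 rose and none fell (median 0.46), of 14 in complexes II and III 10 rose and none fell (0.42), of 27 in complex IV 18 rose and 1 fell (0.37), and of 18 in the ATP synthase 14 rose and none fell (0.44). On the TPM scale these medians stayed above 0, at 0.19, 0.09, 0.05 and 0.11, beside -0.25 for all genes. In the reported fit 15.6% of all genes were higher and 13.3% lower. Ndufa9, a complex I subunit, was at 75.5, 73.7 and 75.3 CPM in cultured and 112, 102 and 109 CPM in IL-1b-treated libraries, all higher (log2 fold change 0.53 ± 0.05, edgeR adjusted p = 1.20e-07). Uqcrc2, a core protein of complex III, was at 161, 166 and 159 CPM against 239.7, 227 and 224 CPM (0.51 ± 0.04, edgeR adjusted p = 4.53e-09). Cox7a2l, a factor of respiratory supercomplexes, and Atp5f1, a stalk subunit of the synthase, rose by 0.49 ± 0.03 and 0.45 ± 0.04.

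Median effective lengths ran from 492 bases in complex I to 1072 bases in complexes II and III. With the length trend of all genes removed, 18 genes of complex I were higher, 11 of complexes II and III, 11 of complex IV and 12 of the ATP synthase, and 0, 1, 1 and 0 lower. Over all genes 16.8% were then higher and 7.03% lower. With the steeper trend removed, where 11.4% of all genes were higher and 10.9% lower, complex I had 10 genes higher and 3 lower. Complexes II and III had 4 and 1, complex IV 6 and 2, and the ATP synthase 4 and 2. Ndufa9, Uqcrc2, Cox7a2l and Atp5f1 stayed higher there, at 0.40, 0.44, 0.27 and 0.35. Cox18, an assembly factor that inserts a complex IV subunit, was the gene that fell in complex IV, from 11.3, 11.6 and 12.3 CPM to 8.53, 10.1 and 7.72 CPM (log2 fold change -0.42 ± 0.14, edgeR adjusted p = 0.0262), and this call was lost when cultured replicate 2 or 3 or IL-1b replicate 1 or 3 was left out (adjusted p = 0.0554 to 0.11, edgeR) and with the effective length offset (adjusted p = 0.153, edgeR).

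Of the 13 messengers encoded by mitochondrial DNA 12 rose and none fell, with a median of 0.46, beside 15.6% and 13.3% of all genes. After removal of the length trend of all genes and of the steeper trend 10 and 9 were higher, beside 16.8% and 11.4%. The cytochrome oxidase subunit mt-Co1 was at 9942, 10248 and 9609 CPM against 15047, 13875 and 14018 CPM (log2 fold change 0.53 ± 0.03, edgeR adjusted p = 3.31e-13). Mitochondrial counts took 2.48, 2.59 and 2.41% of each cultured and 3.40, 3.12 and 3.11% of each IL-1b-treated library, without overlap. Mitochondrial ribosomes had 36 of 78 tested protein genes higher and 0 lower, beside 15.6% and 13.3% of all genes. The list median was 0.25, and -0.03 in TPM, where that of all genes was -0.25. With the steeper length trend removed 6 were higher and 4 lower (11.4% and 10.9% of all genes), and with that of all genes removed 24 and 0 (16.8% and 7.03%). Mrpl18 rose by 0.61 ± 0.07 and stayed higher there (0.38). In a list of the tricarboxylic acid cycle and its entry, which also holds the cytosolic Mdh1, 12 of 21 genes rose, beside 15.6% of all genes. The list median was 0.19, and -0.11 in TPM, where that of all genes was -0.25. Of the list 8 were higher with the steeper trend and 11 with that of all genes removed, beside 11.4% and 16.8% of all genes. Mdh1, the cytosolic malate dehydrogenase, was at 134, 136 and 131 CPM against 208, 208 and 204 CPM (log2 fold change 0.63 ± 0.04, edgeR adjusted p = 3.44e-11, and 0.54 with the steeper trend removed). Ogdh, the first subunit of the oxoglutarate dehydrogenase, was the member that fell (-0.33 ± 0.05). The peroxide-reducing Prdx1 rose from 176, 192 and 179 CPM to 276, 264 and 283 CPM (0.59 ± 0.04, edgeR adjusted p = 2.71e-10), and Txnrd1, the thioredoxin reductase, fell by 0.23 ± 0.06. The call of Txnrd1 was lost with the length trend of all genes removed (-0.14, adjusted p = 0.0746, edgeR), with base composition added (-0.12, adjusted p = 0.131, edgeR) and with the effective length offset (-0.22, adjusted p = 0.0513, edgeR).

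The proteasome core and lid, which degrade ubiquitin-tagged proteins, had 30 of 37 tested genes higher and 1 lower, beside 15.6% and 13.3% of all genes. The list median was 0.36, and 0.05 in TPM. With the length trend of all genes and the steeper trend removed 25 and 21 were higher, beside 16.8% and 11.4% of all genes. Psma5, a subunit of the core's outer ring, was at 70.0, 71.1 and 70.2 CPM in cultured and 112, 107 and 105 CPM in IL-1b-treated libraries, without overlap (log2 fold change 0.62 ± 0.05, edgeR adjusted p = 9.71e-09). Psma2, at 111, 121 and 110.1 CPM against 173, 176 and 159.6 CPM, rose by 0.57 ± 0.05, and by 0.56 with the steeper trend removed, at an effective length of 2148 bases. Psmd3, a lid subunit, fell by 0.25 ± 0.06 (edgeR adjusted p = 0.00351), but was not called with base composition and length removed (-0.13, adjusted p = 0.168, edgeR).

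All 14 genes of the chaperonin CCT and of prefoldin, which fold actin and tubulin, rose (median 0.35, and 0.04 in TPM), and 12 were higher with either length trend removed. Cct8 was at 268, 266 and 268 CPM in cultured and 389, 398 and 378 CPM in IL-1b-treated libraries, far above (log2 fold change 0.54 ± 0.03, edgeR adjusted p = 2.61e-11). Cct5 and Pfdn5 rose by 0.37 ± 0.03 and 0.50 ± 0.04.

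**Figure D3:**
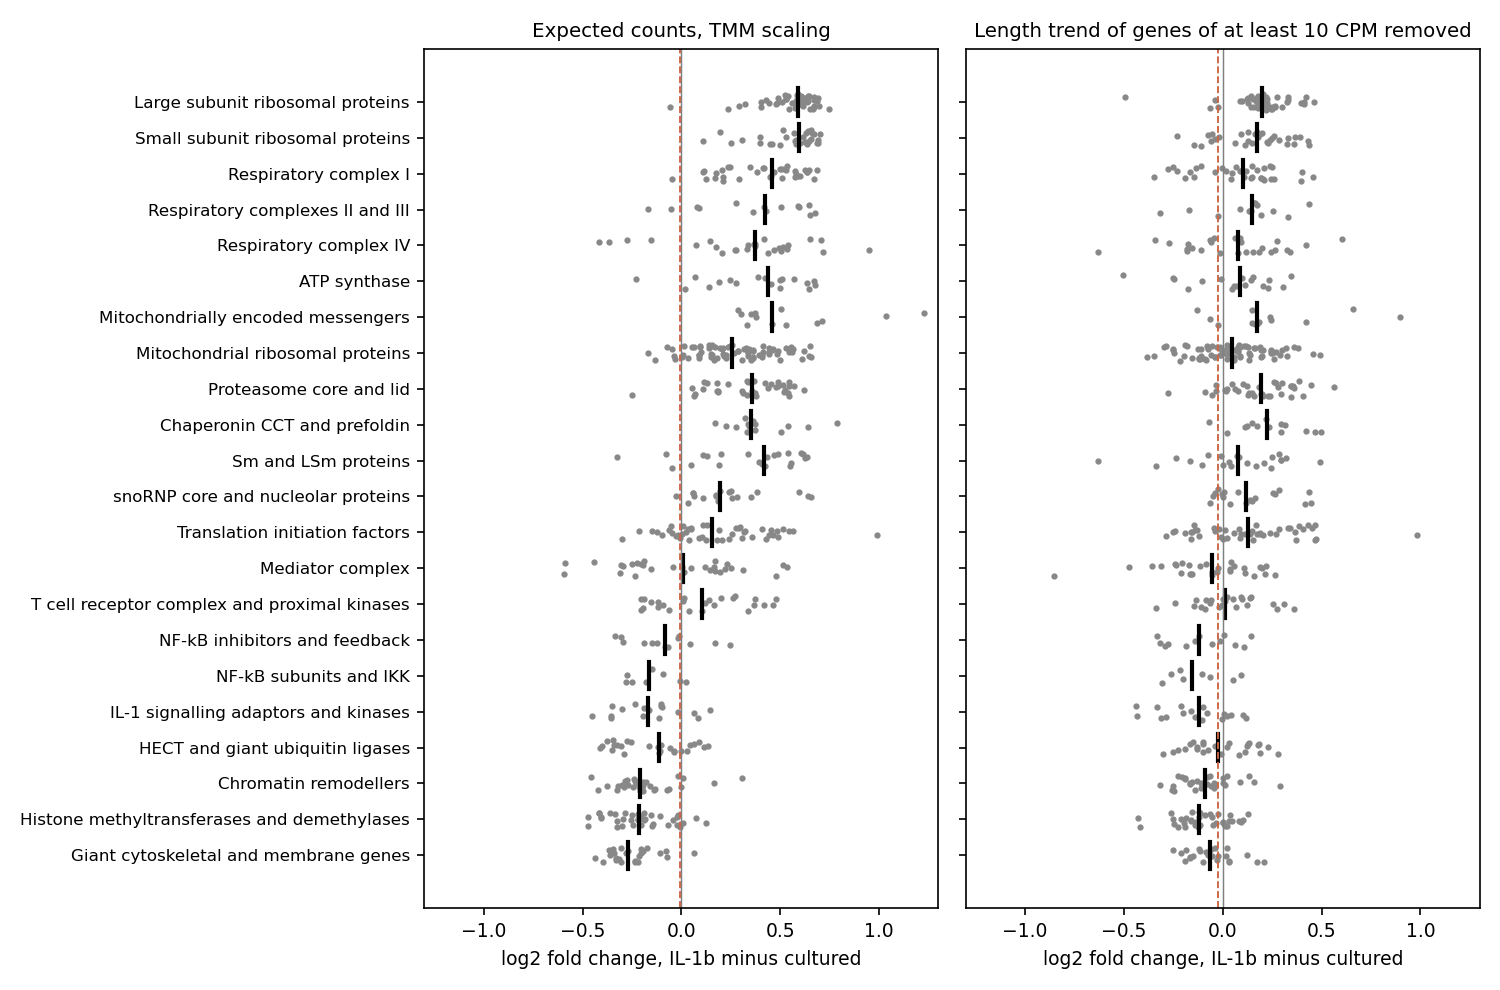
Log2 fold change (IL-1b minus cultured) of each tested member (grey points, scattered vertically) of 22 gene lists, with the list median (black bar) and the median of all genes (dashed line), before (left) and after (right) removal of the length trend fitted on genes of at least 10 CPM. Ribosomal protein medians move from 0.59 to 0.20 and 0.17, and the chaperonin median from 0.35 to 0.23.

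For the lists that follow, the shares over all genes were 15.6% higher and 13.3% lower. They were 16.8% and 7.03% with the length trend of all genes removed, and 11.4% and 10.9% with the steeper trend removed. Of 12 RNA polymerase II subunits 8 rose, among them Polr2g (0.61 ± 0.07), and the largest, Polr2a, fell from 329, 321 and 344 CPM to 247, 246 and 267 CPM (log2 fold change -0.39 ± 0.04, edgeR adjusted p = 2.67e-08). After removal of the length trend of all genes 4 subunits were higher and 1 lower, and with the steeper trend removed 2 and 1, and the median went from 0.33 to 0.20 and 0.08. Of 22 tested Sm and LSm genes, the ring proteins of spliceosomal RNAs, 15 rose and none fell (median 0.42, and 0.12 on the TPM scale), such as Snrpg (0.62 ± 0.06) and Snrpd3 (0.49 ± 0.06). With the steeper trend removed 7 were higher and 2 lower, and with that of all genes removed 10 and 1. Of 31 splicing regulators of the SR and hnRNP families 12 rose and 3 fell, and the long scaffold Srrm2 was at 1716, 1706 and 1725 CPM against 1320.4, 1355 and 1340.1 CPM (log2 fold change -0.36 ± 0.02, edgeR adjusted p = 7.67e-11). Srsf5 rose by 0.29 ± 0.03. Of the regulators 10 were higher and 9 lower with the steeper trend removed, and 13 and 5 with that of all genes removed. The Mediator complex links enhancers to polymerase. Of its 30 genes 5 rose, including Med21 (0.51 ± 0.10), and 7 fell, including Med12 (-0.31 ± 0.04), beside 15.6% and 13.3% of all genes. Those counts became 5 and 3 with the length trend of all genes removed and 2 and 4 with the steeper trend removed, where Med21 was at 0.22 and not called (edgeR adjusted p = 0.135), nor with base composition added (0.25, adjusted p = 0.0714, edgeR).

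Many genes of chromatin enzymes fell. Of 38 histone methyltransferases and demethylases none rose and 24 fell, with a median of -0.22. Of 31 chromatin remodellers 2 rose and 22 fell, with a median of -0.21. Over all genes 15.6% rose and 13.3% fell. Kmt2d, which methylates histone H3 at enhancers, was at 953, 938 and 1008 CPM in cultured and 686, 752 and 737 CPM in IL-1b-treated libraries, all lower (log2 fold change -0.41 ± 0.03, edgeR adjusted p = 2.63e-09). Kmt2a and Kmt2c of the same family fell by 0.41 ± 0.03 and 0.34 ± 0.03. Among remodellers, Srcap, which deposits the variant histone H2A.Z, was at 293, 289 and 321 CPM against 223, 214 and 219.9 CPM (log2 fold change -0.46 ± 0.04, edgeR adjusted p = 5.05e-09), and Chd4 and Ep400 fell by 0.38 ± 0.03 and 0.42 ± 0.04. The variant histone gene itself, H2afz, rose by 0.58 ± 0.04. The 2 remodellers that rose were Smarca5 (0.16 ± 0.04, and -0.15 on the TPM scale) and Smarce1 (0.31 ± 0.05), and both lost their call with the effective length offset (edgeR adjusted p = 0.106 and 0.0836).

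With the length trend of all genes removed, 11 methylation genes and 8 remodellers were lower and 1 and 3 higher, beside 7.03% and 16.8% of all genes. With the steeper trend removed 16 and 13 were lower and 0 and 2 higher, beside 10.9% and 11.4%. The 6 genes named above for their fall were lower in both. Median effective lengths of the lists were 4252 and 4855 bases. In the bins that hold these lengths 24.4% and 40.1% of genes were lower in the reported fit.

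Of 25 tested giant cytoskeletal and membrane genes none rose and 20 fell (median -0.27), and of 26 HECT-type and other giant ubiquitin ligases none rose and 14 fell (median -0.12). Macf1, which crosslinks actin and microtubules, was at 1910.0, 1922 and 1914 CPM against 1541, 1501 and 1528 CPM (log2 fold change -0.33 ± 0.02, edgeR adjusted p = 4.76e-11). Dync1h1, the dynein motor, and Plec, the linker plectin, fell by 0.40 ± 0.03 and 0.44 ± 0.04, and Utrn, the dystrophin homologue utrophin, by 0.33 ± 0.03. Ubr4 was at 455, 439 and 448 CPM against 348, 341 and 327 CPM (-0.40 ± 0.03, edgeR adjusted p = 9.25e-10), and Huwe1 fell by 0.35 ± 0.03. With the steeper length trend removed these 6 genes stayed lower, by 0.10 to 0.25. In all, 8 of 25 cytoskeletal genes and 11 of 26 ligases were then lower, and 1 and 6 higher, beside 10.9% and 11.4% of all genes. With the length trend of all genes removed 8 and 8 were lower, and 1 and 6 higher, beside 7.03% and 16.8%. With base composition added 4 and 6 were lower and 2 and 4 higher, and Plec was not called (-0.05, adjusted p = 0.276, edgeR). Median effective lengths were 7250 bases (cytoskeletal genes) and 5480 bases (ligases), and 40.1% of the genes in the longest 10th were lower.

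In the PI3K and mTOR list, the growth-factor and nutrient branch, 11 of 32 genes fell and 5 rose, beside 13.3% and 15.6% of all genes. Here 5 were lower and 6 higher with the length trend of all genes removed, and with the steeper trend removed 5 and 3. Those that rose were Lamtor2, Lamtor3, Lamtor4 and Lamtor5 of the lysosomal platform of mTOR, and the GTPase Rheb, of which Lamtor3 and Rheb were at -0.039 and -0.0044 on the TPM scale. The call of Lamtor3 was lost without cultured replicate 1 or 3 or IL-1b replicate 2 (edgeR adjusted p = 0.0714 to 0.137) and in all 4 length settings, and that of Lamtor5 in all but the effective length offset. Lamtor4 was not called with the steeper trend removed (edgeR adjusted p = 0.125). Lamtor2 was at 54.9, 56.1 and 61.4 CPM against 84.1, 85.6 and 75.6 CPM (log2 fold change 0.51 ± 0.07, edgeR adjusted p = 1.22e-05), but 0.12 and not called with the steeper length trend removed. Mtor itself overlapped, at 58.1, 51.6 and 61.8 CPM against 48.1, 52.2 and 53.1 CPM (-0.16 ± 0.07, edgeR adjusted p = 0.0865). The related scaffold Trrap fell by 0.39 ± 0.04 and by 0.28 with that trend removed, whereas Smg1, a kinase of RNA surveillance, fell by 0.26 ± 0.03 and was not called after it (-0.03), nor with the length trend of all genes removed (-0.04) or the effective length offset (edgeR adjusted p = 0.0682).

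Of the 25 genes of the T cell receptor complex and its proximal kinases 13 rose and 7 fell, beside 15.6% and 13.3% of all genes. The list median was 0.10, and -0.20 in TPM, where that of all genes was -0.25. With the length trend of all genes removed 11 were higher and 2 lower (16.8% and 7.03% of all genes). With the steeper trend removed there were 8 and 7 (11.4% and 10.9%). The 3 chains of CD3, the signalling module of the receptor, lie side by side on chromosome 9. Cd3d was at 379, 377 and 384 CPM in cultured and 526, 516 and 528 CPM in IL-1b-treated libraries, all higher (log2 fold change 0.46 ± 0.03, edgeR adjusted p = 5.88e-11). Cd3g rose from 361, 384 and 361 CPM to 523, 513 and 502 CPM (0.48 ± 0.03, edgeR adjusted p = 3.23e-10). Cd3e went the other way, from 248, 261 and 248 CPM to 228, 214 and 214 CPM (-0.21 ± 0.04, edgeR adjusted p = 1.19e-04). The effective lengths of the 3 genes were 1356, 836 and 1212 bases, and with the steeper length trend removed the values were 0.36, 0.25 and -0.34, still called.

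Of the 17 naive cell markers 6 rose and 7 fell, beside 15.6% and 13.3% of all genes. With the length trend of all genes removed 8 were higher and 6 lower, and with the steeper trend removed 7 and 8. Log2 fold changes in the list ran from -0.24 to 0.48. The members named next, Tcf7, Lef1 and Satb1, are among those that fell and do not stand for the list. Tcf7, a transcription factor of naive and memory cells, was at 955, 943 and 961 CPM against 790.5, 802 and 829.9 CPM (log2 fold change -0.24 ± 0.03, edgeR adjusted p = 2.73e-07), and its partner Lef1 and the chromatin organiser Satb1 fell by 0.23 ± 0.03 and 0.21 ± 0.03, all still lower with either length trend removed. Slfn2, a Schlafen gene linked to T cell quiescence, was at 931, 935 and 923 CPM against 1232, 1253 and 1231 CPM (0.41 ± 0.02, edgeR adjusted p = 1.57e-11). In the MHC class I list 8 of 21 genes rose and 6 fell, beside 15.6% and 13.3% of all genes. With the length trend of all genes removed 5 were higher and 5 lower. B2m, the light chain of class I molecules, rose from 1531, 1566 and 1544 CPM to 2370.0, 2221 and 2206 CPM (0.55 ± 0.03, edgeR adjusted p = 1.70e-13), and Nlrc5, the transactivator of class I genes, fell by 0.21 ± 0.03 but was not called with base composition and length removed (-0.07, adjusted p = 0.123, edgeR). Tmsb4x, which sequesters actin monomers, rose by 0.47 ± 0.02.

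The genes with the largest changes were chosen among 2050 that were called in the same direction before and after removal of the length trend of all genes and that passed the rule for level and separate libraries. The 12 highest were Scand1, Rpl38, Timm8b, Cox7a2, Snhg8, Rps29, Trappc2l, Rpl41, Rps16, Rpl31, Rps14 and Ndufb4, with log2 fold changes of 0.69 to 0.76. Ribosomal protein genes made up 6 of them. Scand1, a small SCAN domain protein, was at 32.4, 25.9 and 28.2 CPM in cultured and 44.5, 46.5 and 56.0 CPM in IL-1b-treated libraries (log2 fold change 0.76 ± 0.11, edgeR adjusted p = 1.04e-05). Timm8b, a carrier chaperone of mitochondrial import, was at 15.3, 12.5 and 14.7 CPM against 21.2, 23.7 and 25.6 CPM (0.73 ± 0.13). Snhg8, a small nucleolar RNA host gene, was at 53.0, 51.2 and 51.0 CPM against 75.7, 92.0 and 85.9 CPM (0.71 ± 0.08). With the steeper trend removed, Timm8b and Snhg8 were no longer called, and the other 10 were.

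The 12 lowest were Lars2, CT010467.1, Celsr2, Kcnq1ot1, Dapk1, Malat1, Rab43, Pelp1, Mical3, Rpap1, Idua and Mon1b. The rule required them to be lower with the length trend of all genes removed, and all stayed lower with the steeper trend removed. Lars2, a mitochondrial leucyl-tRNA synthetase, and CT010467.1, annotated as ribosomal RNA, fell by 2.58 ± 0.05 and 2.10 ± 0.02, and the other 10 by 0.52 to 0.74. Lars2 was at 373 to 390.0 CPM in cultured, 59.2 to 65.9 CPM in IL-1b-treated and 116 to 125 CPM in fresh libraries, and CT010467.1 at 4258 to 4502, 1019 to 1036 and 1399 to 1418 CPM. For both genes cultured libraries were highest and IL-1b-treated ones lowest. The number of genes with counts also differed between the groups, as given above, and the part that RNA or library quality has in these changes was not tested. The nuclear long noncoding RNA Malat1 was at 2360.2, 2437 and 2370.4 CPM against 1588, 1530.3 and 1533 CPM (log2 fold change -0.62 ± 0.02, edgeR adjusted p = 3.85e-15). Celsr2, an adhesion receptor of the cadherin family, fell from 22.3, 23.03 and 20.6 CPM to 13.6, 10.9 and 14.96 CPM (-0.74 ± 0.13, edgeR adjusted p = 1.21e-04). Dapk1, a death-associated kinase, fell from 25.9, 25.1 and 26.3 CPM to 14.8, 18.3 and 15.03 CPM (-0.68 ± 0.11, edgeR adjusted p = 4.48e-05). Kcnq1ot1 is an antisense transcript, and the strand setting of the counting is not given in the sources used here, so its reads and those of its sense gene cannot be told apart. Rab43, a small GTPase, had the largest standard error of the 12, at 24.4, 24.1 and 33.9 CPM against 12.9, 23.1 and 17.9 CPM (-0.62 ± 0.15, edgeR adjusted p = 0.00344), and its call was lost without cultured replicate 3 (-0.44, adjusted p = 0.0521, edgeR). With the effective length offset Rab43, Celsr2 and Mical3 were not called (edgeR adjusted p = 0.111, 0.532 and 0.921).

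**Figure D4:**
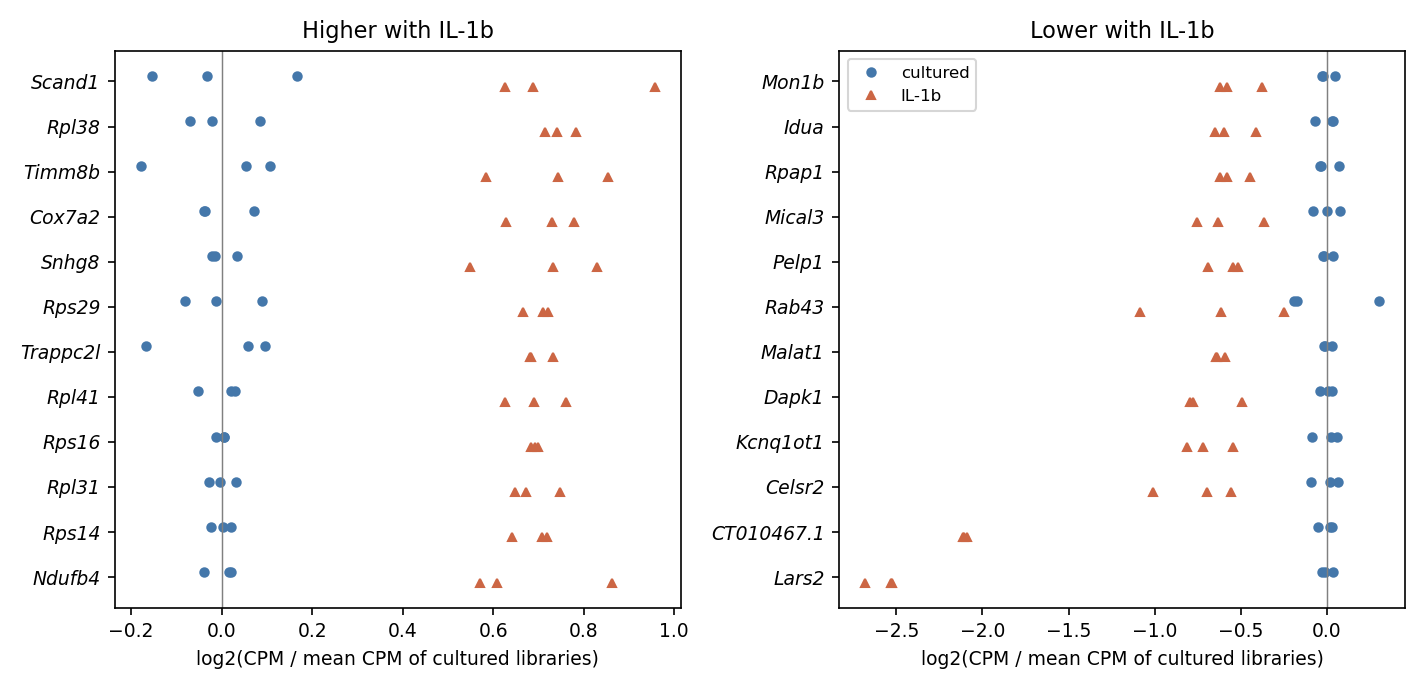
Log2 ratio of CPM in each library to the mean of the 3 cultured libraries, for the 12 genes highest (left) and 12 lowest (right) with IL-1b by the rule. Circles are cultured and triangles IL-1b-treated libraries. The groups do not overlap in any of the 24 genes, which the rule required, and Rab43 comes closest.

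The deposited gene length is a mean over isoforms weighted by their abundance, so it moves when isoform use does. None of 8477 genes (0%) differed in this length between the groups in limma with Benjamini-Hochberg adjustment, and 641 (7.56%) had an unadjusted p under 0.05. The smallest p was that of Mvb12b, an ESCRT subunit, whose mean transcript length was 4614, 4932 and 4954 bases in cultured and 2803, 2496 and 2904 bases in IL-1b-treated libraries (log2 change -0.82 ± 0.07, limma adjusted p = 0.271). Without IL-1b replicate 3, 1 gene passed (smallest limma adjusted p = 0.0422). The median log2 change of this length over all 8477 genes was -0.00075. Among the giant genes, Rnf213 had a mean length of 10301, 10156 and 9856 bases against 8077, 7697 and 8265 bases (limma adjusted p = 0.271), beside its fall in counts of 0.41 ± 0.04 on the log2 scale. With each library's effective length as an offset its value was -0.07 and not called (edgeR adjusted p = 0.462).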

How the data were processed

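Polyadenylated RNA was sequenced per the labels' protocols from directional libraries. STAR, RSEM and mm10 are named in the submitters' processing notes. Tool versions and the strand setting were not found: not given in the sources used here. The deposited tables hold, per the file headers, RSEM expected counts per gene (not normalised, reads shared among matching genes), TPM values, FPKM values, deposited but not used, and length and effective length in bases. Groups came from the sample titles.

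Expected counts were rounded and fitted over all 9 libraries with edgeR 4.0.16 in R 4.3.3 (filterByExpr, TMM scaling, quasi-likelihood F test, Benjamini-Hochberg, threshold 0.05). Standard errors are the log2 fold change divided by the root of F. Of the tested genes 3426 had deposited counts that were not whole, and 1024 of these were called. Of 55487 identifiers 99.53% had a GENCODE M21 symbol (GRCm38, the assembly of mm10). Length trends were fitted per library with mgcv 1.9.3 and entered as offsets. Alternatives were DESeq2 1.42.0, limma 3.58.1 (voom, and log2(TPM + 1) and log2(TPM + 0.1)), other scalings and filters, length and GC offsets, the 6 libraries alone, a replicate block and leaving out each library. Figures used matplotlib 3.10.9. The scripts were tested on simulated data.

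The comparison, gene lists and rules were chosen with earlier results of these data known, and some list patterns were corrected after their members were seen. Named are, in each direction, the 12 largest changes among genes called alike with and without the length trend, with at least 20 CPM in a group, separate libraries and a symbol other than a model, pseudogene, mt-, 7SL or 7SK name; up to 3 list members of smallest adjusted p and called members against their list's majority; and a fixed panel of 27 pathway and length-contrast genes. Other list members named were chosen after their values were seen. Promoters of 9178 tested genes were matched by symbol in a RefSeq table. Replicate numbers did not pair the libraries. A floor of 3 counts was 0.180 to 0.215 CPM, and such limits cover counting error only. Some genes are not reported here.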

Additional observations from a re-analysis of the deposited data

How the results depend on the processing

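Each of the other settings was compared with the reported fit. The 3768 called genes became 2157 with each library's effective length as an offset and 3024 to 3698 when 1 library was left out. The genes higher with IL-1b, 2037 in the reported fit, were 1191 with library size alone, 289 and 286 on log2(TPM + 1) and log2(TPM + 0.1), 1257 with the effective length offset, and 1656 to 2056 with 1 library left out. The genes lower, 1731, were 3273, 4452, 4494 and 900 in these settings, 917 with the length trend removed, 603 with GC content and length removed, 846 with the replicate block and the length trend removed, and 1333 to 1667 with 1 library left out. The slope on length, -0.10, was -0.12 with at least 10 counts in each library, -0.074 and -0.083 on the TPM scales, -0.11 with the 6 libraries alone, -0.14 over genes of at least 10 CPM, and -0.0931 to -0.109 with 1 library left out. It was -0.0043 by construction with the length trend or GC content and length removed, -0.0034 with the replicate block added, and 0.036 when the trend of genes of at least 10 CPM was removed. Transcript length gave 0 to 1 gene and the difference in fragment length -8.53 to -1.84 bases (-4.70 reported) with 1 library left out.

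Directions turned for 12 of 140 named genes. A sign change of a gene called in neither fit, such as Il18r1 on the TPM scale, is not counted here. On log2(TPM + 1) and log2(TPM + 0.1) the values were -0.23 and -0.24 for Sigirr, -0.31 and -0.31 for Ikbkg, -0.14 and -0.14 for Nfkbia, -0.053 and -0.055 for Mapk8, -0.15 and -0.15 for Smarca5, -0.02996 and -0.02997 for Rps13, -0.0391 and -0.039999 for Lamtor3, -0.0484 and -0.0492 for Otulin, -0.00442 and -0.0045 for Rheb, and -0.22 and -0.22 for Rps9. Rps9 was also -0.005998 with library size alone, -0.0757 with the length trend removed, -0.0755 with the replicate block added, and -0.032 with GC content added. With the trend of genes of at least 10 CPM removed, Rps9, Rps13 and Rps27 were at -0.23, -0.11 and -0.077, and Eef2 was at 0.13 with GC content and length removed. Of 120 named genes that were called, 108 kept their call with each library left out, but many of them were chosen for a small adjusted p. Calls were lost on both TPM scales for Atp5f1, Cct5, Celsr2, Eef1a1, Eif4a1, Irak3, Lamtor2, Lamtor4, Lamtor5 and Mdh1. The same held for Med21, Mical3, Ndufb4, Psma2, Rars, Smarce1, Snrpd3, Srsf5 and Trappc2l. List medians changed sign for 20 of 43 lists on log2(TPM + 1) and 9 with library size alone. The medians of all genes were themselves -0.25 and -0.12 in these settings.

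Same-numbered cultured and IL-1b-treated libraries did not deviate together (correlations across genes -0.0222, -1.9e-05 and 0.0107), and a replicate block called 3652 genes, 1972 higher and 1680 lower. The depth limits what can be said of genes near or under the floor of 0.180 to 0.215 CPM, such as Il1r1. The cause of the other shifts was not tested.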
